A study of Mus musculus with 96 samples.

Results

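Interscapular brown adipose tissue (iBAT) of Ucp1-knockout mice, UCP1(-/-) in the labels, was compared with iBAT of wild-type mice, both on control diet at 30 °C. The comparison used 16 of the 96 libraries of the series, 8 a genotype, chosen from the labels for tissue, diet, temperature and genotype. The labels number the wild-type libraries 17 to 24 and the Ucp1-KO libraries 25 to 32, and each of the 16 was treated as a separate animal. All mice were male C57BL/6J and spent 4 weeks in 1 of 3 settings: 20 °C with a control diet that gave 13% of its energy as fat, 30 °C with that diet, or 30 °C with a fat-rich diet (48%), called high fat. Polyadenylated transcripts of iBAT and of inguinal white adipose tissue (iWAT) were sequenced and tabulated as RPKM, reads scaled to transcript length and library size. The deleted part of Ucp1, the age of the mice and their litters are not stated in the labels. The question the comparison addresses is what brown fat without UCP1 looks like at 30 °C, where by the label the animal is not cold.

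UCP1 sits in the inner membrane of brown adipocyte mitochondria and lets protons flow back into the matrix without passing through ATP synthase, so that the energy of fat oxidation is released as heat. Brown adipocytes therefore carry dense mitochondria, and sympathetic signals drive both lipolysis and the genes of heat production. At thermoneutrality a mouse does not need this heat. Nucleic acids that reach the cytosol, of microbial, nuclear or mitochondrial origin, are read by sensors that lead to type I interferons, and these act through IFNAR and JAK kinases on the interferon-stimulated genes. Macrophages that take up lipid in adipose tissue turn on a lysosomal programme marked by Trem2, Gpnmb and Lgals3.

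Promoters of 3 sets of genes are shown because each set has a known regulatory element. The sequences are mouse promoter stretches from RefSeq on build GRCm38.p6, 5′ to 3′ on the strand of the gene, taken from the 250 bases before the start site, with the matched motif in capitals. In each set only genes with 1 start site in the promoter table and a match upstream of it were considered. Those of them with the largest rise are printed, so other genes of a list can have risen more. The first set, from the lists of type I interferon effectors and interferon signalling, carries the interferon-stimulated response element, searched as GAAANNGAAA on both strands. Isg15, a ubiquitin-like modifier, has its stretch at chr4:156200850-156200921 on the minus strand, Ifit3 and Ifit1, which bind foreign RNA, at chr19:34583348-34583441 and chr19:34640760-34640838 on the plus strand, and Rsad2, the antiviral enzyme viperin, at chr12:26456538-26456597 on the minus strand.
Isg15: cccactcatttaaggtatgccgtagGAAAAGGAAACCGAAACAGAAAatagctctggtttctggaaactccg
Ifit3: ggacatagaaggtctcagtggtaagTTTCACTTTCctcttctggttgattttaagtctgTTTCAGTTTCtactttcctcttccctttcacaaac
Ifit1: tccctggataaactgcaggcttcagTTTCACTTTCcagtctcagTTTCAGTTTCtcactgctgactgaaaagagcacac
Rsad2: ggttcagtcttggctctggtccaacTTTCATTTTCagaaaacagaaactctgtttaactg

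The second set carries the C/EBP-ATF response element, searched as TGATGNAA on both strands, the site of ATF4 and its partners in the integrated stress response. The genes are Atf3, a stress-induced transcription factor (chr1:191183411-191183468, minus strand), Slc7a11, the cystine transporter (chr3:50443628-50443704, minus strand), and Chac1, which degrades glutathione (chr2:119351024-119351081, plus strand). The third set carries the antioxidant response element, searched as TGACNNNGC on both strands, the site of NRF2. Its genes are Prdx1, a peroxidase (chr4:116685441-116685499, plus strand), and Gclm, a subunit of the enzyme that makes the glutathione precursor (chr3:122245398-122245456, plus strand).
Atf3: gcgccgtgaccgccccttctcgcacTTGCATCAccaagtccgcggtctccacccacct
Slc7a11: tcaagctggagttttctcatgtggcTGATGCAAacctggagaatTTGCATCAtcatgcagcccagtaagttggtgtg
Chac1: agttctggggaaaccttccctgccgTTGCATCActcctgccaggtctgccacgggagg
Prdx1: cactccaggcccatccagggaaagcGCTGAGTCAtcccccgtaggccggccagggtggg
Gclm: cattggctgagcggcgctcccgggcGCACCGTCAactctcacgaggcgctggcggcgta

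The interferon element was present upstream in 8 of the 22 type I interferon effector genes with an entry (36.4%) and in 4 of 15 interferon signalling genes (26.7%), against 3.5% of all 27025 genes in the promoter table. In the integrated stress response list it was present in 4.5%, in the redox list in 0.0% and in the lysosome list in 2 of 21 genes (9.5%). The C/EBP-ATF element was found in 6 of 22 integrated stress response genes (27.3%) against 3.9% of all genes, and in 13.6% of the type I effectors. The antioxidant element was found in 6 of 18 redox genes (33.3%) against 11.5% of all genes. It was as frequent in the lysosome list (33.3%), so it was no more frequent in 1 of these lists than in the other. The lysosomal CLEAR element, TCACGTGA, was found in 3 of 21 lysosome genes (14.3%) against 0.9% of all genes. The short antioxidant pattern can overlap other motifs, and a match is a string of letters, not a measured binding site.

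Depth, to 3 digits, was 9310000 to 13700000 reads in the wild-type and 11400000 to 19200000 in the Ucp1-KO libraries, and 1 read on a 1 kb transcript was worth 0.0520 to 0.107 RPKM. The Ucp1-KO libraries 30, 31 and 32 stood apart: their mean correlation with the other libraries of their group was 0.977 to 0.985, against 0.986 to 0.992 for the other 13. Counts of a list without them are given where they changed its balance. Of 14811 genes tested in iBAT (0.5 RPKM in at least 8 libraries), 8025 (54.2%) were higher and 1561 (10.5%) lower in Ucp1-KO at an adjusted p below 0.05 (limma on log2(RPKM + 1), Benjamini-Hochberg). The ranges of the 8 and 8 libraries did not overlap for 3221 genes higher in Ucp1-KO (21.7%) and 440 lower (2.97%). The scale of the libraries set part of this asymmetry. The median of all genes was 0.27 higher in Ucp1-KO on the deposited scale and 0.02 higher after median-ratio scaling, where 4377 genes (29.6%) were higher and 4037 (27.3%) lower. Higher calls made up 83.7% of all calls as deposited, 52.0% with median-ratio scaling, 42.0% with quantile normalization and 66.5% when RPKM were rescaled without the mitochondrial genome and Ucp1. List counts are therefore followed by those on the median-ratio scale, to be read beside the shares of all genes on the same scale. A difference always means Ucp1-KO minus wild-type of the group means on log2(RPKM + 1), with its standard error.

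Markers of other cell types were read first. The 13 skeletal muscle markers summed to 119 to 4774 RPKM in wild-type and 94.3 to 13076 in Ucp1-KO libraries, with library 32 the highest. Of the 13, 0 were called, but their median difference was 0.70 and the spread was wide, so equal levels cannot be read from this. Hemoglobin and other erythroid markers summed to 69.9 to 543 against 89.1 to 1017 RPKM, with 0 of 5 called. The 10 epithelial markers summed to at most 1.75 RPKM in any library and Krt5 was listed at 0 in all 16. Brown adipocyte identity was present in both genotypes. Of 10 genes 3 rose and 3 fell (0 and 5 on the median-ratio scale, 1 and 3 without libraries 30 to 32), the lower ones as deposited being Ucp1, Cidea and Cox7a1 (−0.41 and −0.42 for the last pair). Zic1, Lhx8, Prdm16 and Ebf2, transcription factors of the brown lineage, did not pass the test (0.17, 0.20, −0.02 and −0.14), although Prdm16 and Ebf2 were lower on the median-ratio scale (−0.30 and −0.44), and Pparg and Plin1 rose by 0.28 and 0.26, close to the shift of all genes. In whole tissue, fewer cells of a type and less RNA per cell cannot be told apart.

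Ucp1 itself checks the genotype labels, while the temperature labels were taken as given and not tested. In wild-type libraries it lay between 7328 and 9281 RPKM with a median of 8200, and in Ucp1-KO libraries between 564 and 1112 with a median of 679. The groups did not overlap, and the Ucp1-KO mean was 8.94% of the wild-type mean rather than 0. The difference was −3.51 ± 0.12 (adjusted p = 9.8e-27, limma; exact permutation p = 0.0001554 over the 16 libraries, two-sided). The wild-type mean at 30 °C, 8227 ± 577 RPKM (SD, n = 8), was above that at 20 °C, 3793, and the genotype difference was larger by 1.61 ± 0.17 at 30 °C. That wild-type order is the reverse of what the need for heat at the labelled temperatures would give, and its cause was not tested. Ucp1 was −3.06 on high fat diet, and in iWAT, where the means were 33.3 and 83.8 RPKM, it rose by 1.97.

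**Figure D1:**
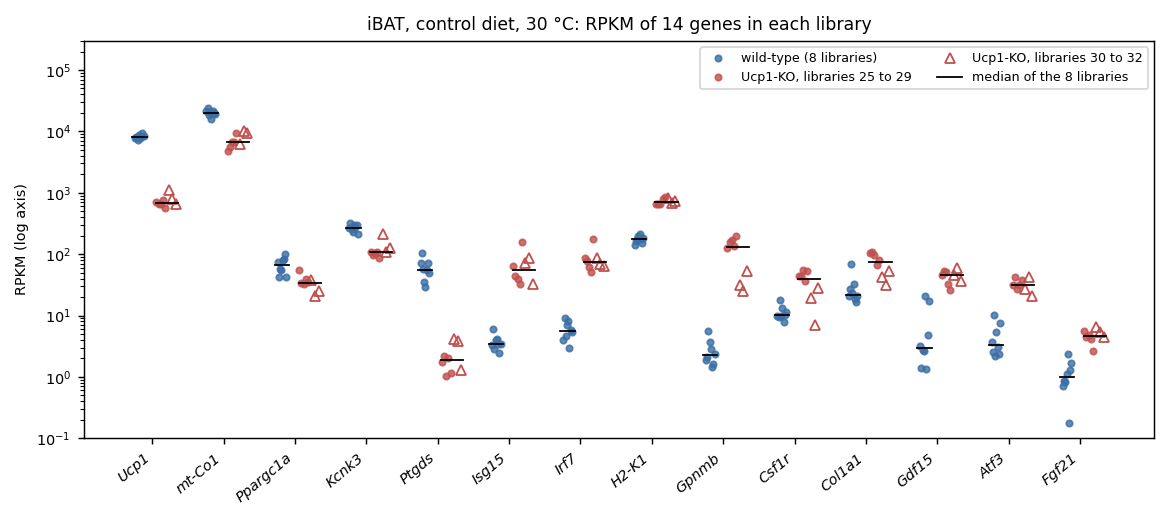
RPKM on a log axis of 14 genes in each of the 16 iBAT libraries on control diet at 30 °C, with wild-type in blue, Ucp1-KO libraries 25 to 29 as red circles, libraries 30 to 32 as open triangles and bars at the group medians. Ucp1 and mt-Co1 are separated downwards and Isg15, Irf7, H2-K1, Gpnmb and Gdf15 upwards, while the open triangles lie low in Gpnmb and Csf1r but among the other Ucp1-KO libraries in Isg15 and Irf7.

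Genes of heat production other than Ucp1 were lower in Ucp1-KO iBAT. Of 29 tested, 18 fell and 2 rose, with a median of −0.46 beside 0.27 for all genes. On the median-ratio scale 24 fell and 0 rose. Ppargc1a, the coactivator that drives mitochondrial biogenesis, had 41.9 to 100 RPKM (median 66.9) in wild-type and 20.9 to 54.2 (median 34.2) in Ucp1-KO libraries. These ranges overlap, and the difference was −0.92 ± 0.24 (adjusted p = 0.00085). Esrrg, an estrogen-related receptor that activates oxidative genes, went from 9.01 to 18.3 down to 3.17 to 6.44 RPKM without overlap (−1.23 ± 0.15). Kcnk3, a potassium channel of brown adipocytes, went from 216 to 320 down to 86.0 to 211 RPKM (−1.22 ± 0.16). Otop1, a proton channel, and Pank1, which starts coenzyme A synthesis, fell by 1.10 and 1.24 with no overlap. Elovl3, a fatty acid elongase that marks stimulated brown fat, went the other way (0.78 ± 0.29, adjusted p = 0.016), with ranges of 111 to 243 and 166 to 543 RPKM that overlap. It did not pass on the median-ratio scale (0.45) or without library 30 (0.63).

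Transcripts of the mitochondrial genome were mostly lower. Of the 11 genes tested 10 were lower, mt-Nd4l being the exception (−0.41), and the median was −1.02. All 11 were lower on the median-ratio scale, whereas with quantile normalization 8 were lower, mt-Nd4 was higher by 0.45 and mt-Nd5 was at 0.14. The table lists 6 of the genes at wild-type means of 8406 to 23300 RPKM (mt-Nd5 to mt-Nd1) and 5 at 0.648 to 4.52 RPKM (mt-Nd4l to mt-Atp6). All of the 6 abundant genes were lower as deposited, and the other 5, so far below them, weigh little in the count. mt-Co1, the catalytic subunit of cytochrome c oxidase, had 16061 to 24016 RPKM in wild-type and 4830 to 10164 in Ucp1-KO libraries, with no overlap and a difference of −1.49 ± 0.16 (adjusted p = 1.3e-10). mt-Nd5 and mt-Nd6 of complex I fell by 1.23 and 1.29. mt-Nd1 fell by less (0.85) and its ranges overlap. With no filter on low values mt-Nd1 and mt-Nd4 did not pass (adjusted p = 0.144 and 0.055). These genes have nuclear copies whose reads cannot be separated here. The summed level of the 11 genes was 71998 to 109040 RPKM in wild-type and 34167 to 60913 in Ucp1-KO libraries, so every Ucp1-KO library lay under every wild-type one, libraries 30 to 32 included.

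Nuclear genes of the respiratory chain followed with smaller differences. Of 55 tested, 33 fell and 2 rose (median −0.32), and 51 fell on the median-ratio scale. All 4 subunits of complex II tested fell, as did 8 of 10 of complex IV and 13 of 22 of complex I, whereas in complex V 4 of 12 fell and 2 rose. On the median-ratio scale these numbers were 4, 9, 22 and 9 lower, and 0 higher in complex V. Ndufv1, the NADH-binding subunit of complex I, went from 403 to 508 RPKM down to 187 to 301 (−0.93 ± 0.09, adjusted p = 1.9e-11), and Uqcrc1 of complex III from 485 to 602 down to 252 to 411 (−0.79 ± 0.09). Neither pair of ranges overlaps. The summed level of the list split the Ucp1-KO group. Libraries 25 to 29 had 16631 to 18966 RPKM, whereas libraries 30, 31 and 32 had 29659, 24959 and 23907, inside the wild-type range of 22897 to 32801. Without these 3 libraries 49 of 55 genes fell (median −0.49), and in the thermogenic list 21 of 29.

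The pathways that feed the chain moved the same way. In the TCA cycle 10 of 16 genes fell and 1 rose (median −0.35; 15 of 16 lower on the median-ratio scale and 15 without libraries 30 to 32). Fh1, fumarase, fell by 0.90 with no overlap, while Cs, citrate synthase, did not pass (−0.05) as deposited and was lower on the median-ratio scale (−0.39). In fatty acid oxidation 16 of 27 fell and 4 rose (20 and 2 on the median-ratio scale), with Crat, Acadl and Cpt1b lower by 0.57, 0.50 and 0.46 and no overlap. Cpt1a, the carnitine palmitoyltransferase form typical of liver, rose from 5.24 to 9.28 RPKM up to 10.6 to 19.1 (0.88 ± 0.11) while Cpt1b, the form of muscle and brown fat, went from 291 to 327 down to 173 to 285. Of 26 genes of mitochondrial translation and upkeep, 7 fell and 4 rose as deposited, 20 fell on the median-ratio scale, and 11 fell and 2 rose without libraries 30 to 32. Clpx, a matrix protease, and Trap1, a mitochondrial chaperone, fell by 0.49 and 0.31 without overlap.

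Creatine and calcium cycling are described as routes of heat production without UCP1. Of 13 such genes 3 rose and 1 fell, beside 54.2% and 10.5% of all genes. On the median-ratio scale 3 rose and 4 fell, near the 29.6% and 27.3% of all genes. Their summed level was highest in library 32 (1857.5 RPKM) and lowest in library 31 (141). The same held for the muscle markers (13076 and 94.3 RPKM), and the part of muscle in this list was not tested. Gatm and Gamt, the enzymes of creatine synthesis, rose by 0.74 and 1.20 from low levels (medians of 1.52 and 2.30 RPKM in wild-type, 3.45 and 6.45 in Ucp1-KO), although Gatm did not pass with quantile normalization (0.33), and Slc6a8, the creatine transporter, did not pass (0.17 ± 0.13). Ryr2, a calcium release channel, rose by 0.63 but its highest library had 1.11 RPKM. Itpr1, another release channel, fell by 0.40 with no overlap. Ckb, Alpl and Atp2a2, which serve creatine and calcium cycling, did not pass as deposited (−0.36, −0.11 and −0.17) and were lower on the median-ratio scale (−0.68, −0.41 and −0.50).

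Genes of fat handling divided. In lipogenesis 8 of 23 rose and 6 fell as deposited, so rises were rarer and falls more frequent than among all genes (54.2% and 10.5%). On the median-ratio scale 4 rose and 10 fell, beside 29.6% and 27.3% of all genes. Without libraries 30 to 32, 5 rose and 8 fell, and the median of the list turned from 0.08 to −0.20. Fasn, fatty acid synthase, ranged from 299.8 to 692 RPKM in wild-type and from 260 to 974 in Ucp1-KO libraries and did not pass (0.18 ± 0.30). Acacb, which makes the malonyl-CoA that restrains fat oxidation, fell by 0.72, and Srebf1, a lipogenic transcription factor, and Dgat1, which completes triglycerides, rose by 1.00 and 0.87 without overlap. Plin2, the coat of lipid droplets, went from 479 to 874 RPKM up to 984 to 1855 (1.10 ± 0.14), and Plin3, a related coat protein, from 28.8 to 50.8 down to 15.6 to 25.1 (−0.84 ± 0.13), each without overlap. Fabp5, a fatty acid carrier shared by adipocytes and macrophages, rose by 1.77. Lpl, lipoprotein lipase, had medians of 2209 and 2213 RPKM and did not pass (0.08 ± 0.14). In cholesterol handling, all 7 efflux genes rose and 4 of 13 synthesis genes rose, 0 falling (6 and 3 rising and 1 synthesis gene falling on the median-ratio scale). Soat1, which esterifies cholesterol, went from 0.594 to 1.43 up to 2.86 to 17.6 RPKM (2.28 ± 0.22), and Apoe from 545 to 975 up to 1153 to 2398 (1.45 ± 0.17).

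Glucose genes changed by isoform. Slc2a4, the insulin-responsive transporter GLUT4, fell by 0.37 ± 0.10, and Slc2a1, the basal transporter GLUT1, rose from 2.87 to 5.06 RPKM up to 8.42 to 12.3 (1.27 ± 0.11). Hexokinase Hk1 rose from a median of 13.1 to 51.6 RPKM (1.92 ± 0.16, no overlap), and Hk3, an isoform of myeloid cells, from 0.615 to 7.98. Across 21 genes of glucose uptake and glycolysis 6 rose and 4 fell, beside 54.2% and 10.5% of all genes. On the median-ratio scale 3 rose and 8 fell, beside 29.6% and 27.3%. Without libraries 30 to 32, 4 rose and 5 fell and the median turned from 0.06 to −0.16.

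Interferon-stimulated genes rose in every Ucp1-KO library. All 28 type I effectors tested rose, all 28 had ranges that did not overlap against 21.7% of all genes, and the median was 2.33. The median-ratio scale left all 28 higher (median 2.02), and without libraries 30 to 32 the median was 2.45. Isg15 had 2.41 to 6.09 RPKM (median 3.45) in wild-type and 32.0 to 158 (median 54.6) in Ucp1-KO libraries. Its lowest Ucp1-KO library was above its highest wild-type library, and the difference was 3.66 ± 0.30 (adjusted p = 3.9e-14). Irf7, the transcription factor that amplifies the response, went from 2.93 to 9.06 up to 50.6 to 176 RPKM (3.59 ± 0.26). Ifit1, Oasl1 and Mx1, antiviral effectors, rose by 3.45, 3.48 and 3.31. Rsad2, whose promoter stretch is printed with that of Isg15, went from 4.50 to 8.73 up to 27.1 to 100.5 RPKM.

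The sensing and signalling steps upstream rose as well. Of 18 sensor genes 17 rose and 1 fell (16 and 1 on the median-ratio scale). Zbp1, which binds left-handed nucleic acid and can trigger necroptosis, went from 0.935 to 4.28 up to 10.4 to 49.6 RPKM (2.84 ± 0.24). Mb21d1, the DNA sensor cGAS, and Tmem173, its adaptor STING, rose by 0.76 and 1.52, and Ifih1, the RNA sensor MDA5, by 2.08. The one gene that fell was Mavs, the adaptor of the RNA sensors on the mitochondrial outer membrane, from 41.2 to 63.6 down to 23.5 to 33.6 RPKM (−0.81 ± 0.09, no overlap). All 17 signalling genes rose on both scales, among them Stat2 (2.10) and the feedback genes Socs1 (1.65) and Usp18 (2.83). Of the receptor genes, Ifnar1 and Ifnar2 rose by 0.32 and 0.31, which on the median-ratio scale was 0.01 and −0.02, and Ifngr2 by 1.17.

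Interferon genes themselves were barely counted. None of the 7 ligand genes in the table passed the filter on low values. Ifnb1, interferon beta, was listed at 0 in all 8 wild-type libraries and above 0 in 7 of 8 Ucp1-KO libraries with a median of 0.164 and a highest value of 0.381 RPKM. In the other iBAT groups it was above 0 in 0 of 8 wild-type libraries at 20 °C and 0 of 8 on high fat diet, and in 1 of 8 and 5 of 8 Ucp1-KO libraries. Ifng, interferon gamma, was above 0 in 4 wild-type and 7 Ucp1-KO libraries (highest 0.0829 and 0.602 RPKM). Ifna1, Ifna2, Ifna4 and Ifnl2 were listed at 0 in all 16 libraries and Ifnk in 15. These values are a description, since no test was made on genes under the filter.

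Genes that respond to interferon gamma rose in 17 of 19 cases, 0 falling (16 on the median-ratio scale). Ubd, a ubiquitin-like modifier, went from 0.858 to 5.04 up to 20.9 to 92.5 RPKM (3.85 ± 0.28). Cxcl10 and Cxcl9, attractants of T cells, rose by 3.74 and 1.74, and the immunity GTPases Gbp2 and Irgm1 by 1.95 and 2.07. Antigen presentation by MHC class I rose in all 18 genes tested (median 1.90), on the median-ratio scale too. H2-K1 and H2-D1, the classical class I chains, went from 140 to 217 and 156 to 218 up to 656 to 855 and 670 to 832 RPKM. The light chain B2m rose from a median of 540 to 2000 RPKM (1.90 ± 0.12). These families hold near-identical copies that share reads, so single members are uncertain. The MHC class II list rose in 9 of 10 genes on either scale, with H2-Ab1 at 39.5 to 66.7 against 88.7 to 307 RPKM. Its sum was 642 to 1262 RPKM in libraries 30 to 32 and 1859 to 2715 in libraries 25 to 29, so these 3 libraries were lower in class II while their type I effector sums (1712 to 2516) lay inside the range of the other 5 (1474 to 2666).

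**Figure D2:**
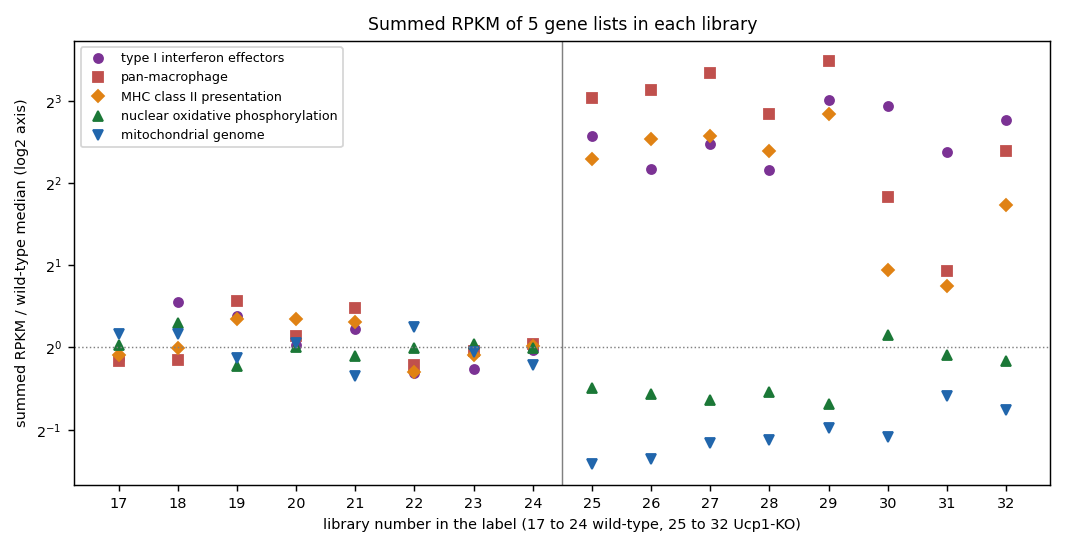
Summed RPKM of 5 gene lists in each library, divided by the wild-type median of the list, on a log2 axis, with library numbers 17 to 24 wild-type and 25 to 32 Ucp1-KO. In libraries 30 to 32 the macrophage and MHC class II sums are nearer to wild-type and the nuclear oxidative phosphorylation sum is at wild-type level, while the interferon effector sum is as high as in the other Ucp1-KO libraries.

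Macrophage genes were among the largest rises. The 9 pan-macrophage markers tested all rose on either scale (median 2.44 as deposited), and their sum was 104 to 177 RPKM in wild-type, 854 to 1341 in libraries 25 to 29 and 425, 228 and 625 in libraries 30, 31 and 32. Csf1r, the receptor for the macrophage growth factor, reached 7.05 RPKM in library 31, under the highest wild-type value of 17.8, so its ranges overlap despite a difference of 1.42 ± 0.25. Mpeg1 and Lyz2, a pore protein and lysozyme of phagocytes, rose by 3.44 and 2.44. Among 20 genes of lipid-associated macrophages 19 rose and 0 fell, and 18 rose on the median-ratio scale. Gpnmb, a lysosomal glycoprotein, showed the largest rise of any gene of at least 5 RPKM, from 1.42 to 5.55 (median 2.26) up to 24.8 to 199 RPKM (median 131), a difference of 4.67 ± 0.37 (adjusted p = 2.4e-14). Lgals3, galectin 3, went from 11.7 to 27.7 up to 231 to 583 RPKM (4.22 ± 0.27), and Trem2, a lipid receptor, from 0.576 to 1.69 up to 6.37 to 38.7 (3.60 ± 0.28). Neither overlapped.

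Markers of resident macrophages moved less. Of 13 tested 9 rose and 2 fell, beside 54.2% and 10.5% of all genes. Ranges without overlap were seen in 0 of 13, beside 21.7% of all genes higher and 2.97% lower. Mrc1, a mannose receptor, rose by 1.23 and Folr2, a folate receptor, by 1.14, while Cd163, the hemoglobin scavenger receptor, and Mgl2, a lectin, fell by 0.46 and 0.43. Cd163 did not pass without wild-type library 19 (−0.41), Ucp1-KO library 29 (−0.41) or Ucp1-KO library 31 (−0.31). On the median-ratio scale 4 rose and 2 fell, beside 29.6% and 27.3% of all genes, so rises were about as frequent as among all genes. Without libraries 30 to 32, 9 rose and 1 fell. The growth factor Csf1, which macrophages need, rose from a median of 4.55 to 15.6 RPKM (1.49 ± 0.19). All 18 chemokine ligands tested rose (16 on the median-ratio scale), with Ccl2, an attractant of monocytes, at 0.232 to 4.40 against 3.76 to 18.1 RPKM and Ccl5 at 1.81 to 3.89 against 11.0 to 111. Of 9 chemokine receptors 7 rose. Ackr3, a scavenging receptor, fell by 0.79, and the receptor counts were the same on the median-ratio scale.

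Lysosome, complement and inflammasome genes rose with them. In the lysosome list 23 of 28 rose and 1 fell as deposited, and 16 rose and 5 fell on the median-ratio scale. Atp6v0d2, a proton pump subunit of macrophages, and Ctss, the protease that prepares class II, rose by 3.37 and 3.63, while Ctsd and Ctsb, cathepsins of all cells, rose by 0.65 and 0.86 with no overlap. All 13 complement genes rose (12 on the median-ratio scale), Cfb by 3.02 ± 0.21 with 4.43 to 10.3 against 37.2 to 84.9 RPKM, and C1qb by 2.17. In the list of inflammasome and cell death genes 18 of 19 rose, and 17 rose and 1 fell on the median-ratio scale. Among them were Casp4 (0.584 to 1.44 against 7.47 to 17.4 RPKM, 2.75 ± 0.17), which senses bacterial lipopolysaccharide, Il1rn, the antagonist of interleukin 1, and Mlkl, the executor of necroptosis (2.26 and 1.73). Il1b, interleukin 1 beta, stayed at or under 3.61 RPKM and rose by 0.82, and Tnf at or under 1.47 RPKM rose by 0.63. Among acute phase genes all 7 tested rose (6 on the median-ratio scale): Saa3, serum amyloid A3, from 0.137 to 0.809 up to 5.47 to 23.0 RPKM (2.94 ± 0.22), and Hp, haptoglobin, from 397 to 673 up to 827 to 2200.5 (1.28 ± 0.15).

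Markers of other immune cells were also higher. All 15 T cell genes tested rose (median 0.98; 14 on the median-ratio scale), though 0 had ranges without overlap and their sum was 5.24 to 24.1 RPKM in wild-type and 17.3 to 74.2 in Ucp1-KO. Their defining member Cd3e had 0.118 to 1.76 against 0.716 to 4.22 RPKM. All 10 NK and cytotoxic genes rose, as did 9 of 9 dendritic cell and 6 of 6 mast cell genes, with Flt3 of dendritic cells at 0.192 to 0.399 against 0.741 to 4.46 RPKM. On the median-ratio scale 10, 8 and 5 of these rose. In the B and plasma cell list 2 of 6 genes rose on either scale. The sums of T cell, dendritic cell and class II genes were lowest, within Ucp1-KO, in libraries 30 to 32. The part these cells had in the interferon and lysosome results was not tested.

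Collagen and matrix genes rose together. Of 18 collagen genes 16 were higher, 0 lower (median 1.06; 14 on the median-ratio scale), including all 6 fibrillar ones. Col1a1 had 16.3 to 68.3 against 31.3 to 107 RPKM, which overlap (1.36 ± 0.24), while Col18a1, a basement membrane collagen, went from 4.36 to 9.77 up to 15.9 to 31.2 without overlap (1.74 ± 0.14). Of 26 matrix remodelling genes 24 rose (22 on the median-ratio scale). Adam8 and Mmp12, proteases of myeloid cells, rose by 3.11 and 2.69, and Mmp14, a membrane protease, by 2.08. Vim, the intermediate filament of mesenchymal and immune cells, went from 135 to 176 up to 396 to 521 RPKM (1.58 ± 0.12). All 9 fibroblast and myofibroblast genes rose (8 on the median-ratio scale), with Pdgfra, the receptor of adipocyte progenitors, at 3.23 to 8.38 against 4.34 to 14.3 RPKM.

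**Figure D3:**
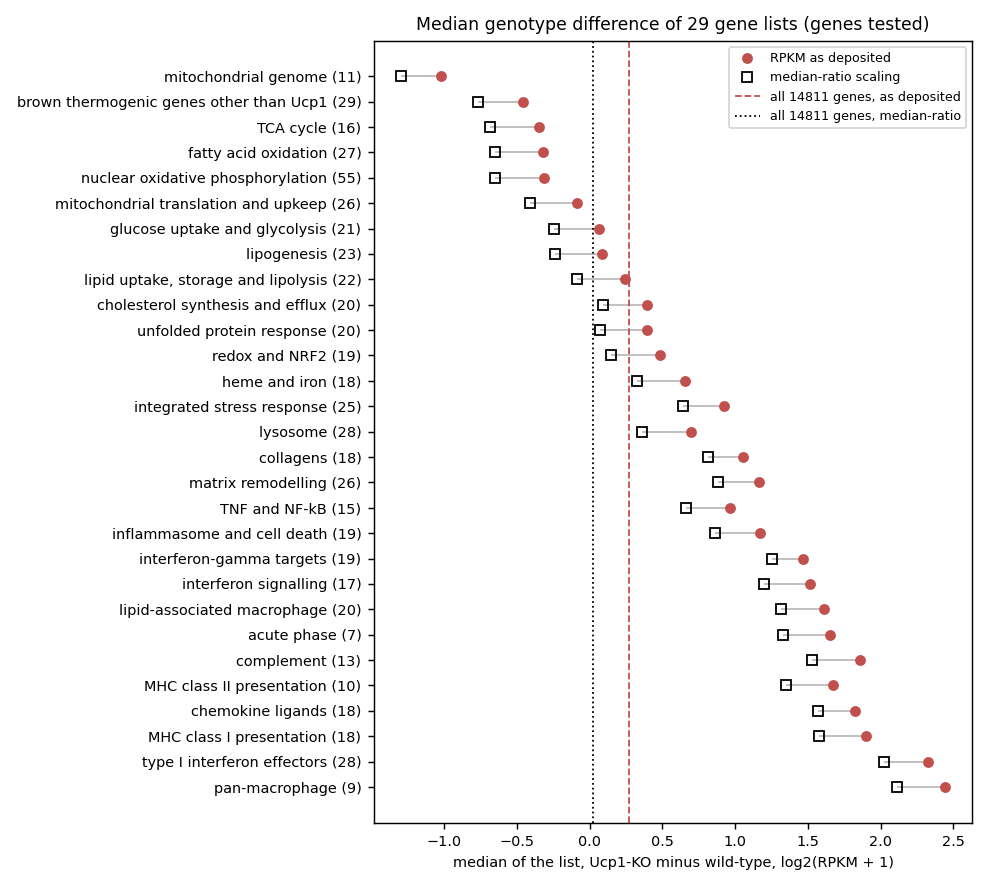
Median genotype difference of 29 gene lists on log2(RPKM + 1), with the number of genes tested in brackets, as red circles for the deposited scale and open squares for median-ratio scaling, beside dashed and dotted lines at the medians of all 14811 genes. Mitochondrial and thermogenic lists lie left of both lines, immune, matrix and stress lists lie right of the line of their own scale, and the lipogenic, glycolytic and lipid uptake lists lie between or beside them and change sign with the scale.

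The integrated stress response, in which kinases that sense damage lower translation and raise ATF4, was higher. Of 25 genes 19 rose and 0 fell (median 0.92), and 16 rose on the median-ratio scale. Atf4 itself had 108 to 163 against 148 to 255 RPKM (0.57 ± 0.10), which overlap, and Ddit3, the factor CHOP, had 10.5 to 17.7 against 25.9 to 51.8 (1.34 ± 0.18), which do not. Atf3 rose from a median of 3.33 to 32.0 RPKM (2.70 ± 0.26). All 6 amino acid transporters of the list rose without overlap, with Slc7a11, whose promoter stretch holds the C/EBP-ATF element, from 0 to 0.247 up to 1.85 to 5.27 RPKM and Slc7a5 and Slc3a2, which form one transporter, by 1.53 and 1.35. Chac1 had 0.838 to 10.5 against 6.60 to 32.4 RPKM, which overlap. Atf5, a factor of the mitochondrial stress response, did not pass (0.22 ± 0.13).

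Hormones of this response rose. Gdf15, a stress hormone that lowers food intake, had 1.36 to 20.5 RPKM (median 2.96) in wild-type and 26.0 to 60.1 (median 45.3) in Ucp1-KO libraries, with no overlap and a difference of 3.01 ± 0.35 (adjusted p = 5.5e-10). Fgf21, a metabolic hormone, had 0.179 to 2.33 against 2.66 to 6.48 RPKM (1.47 ± 0.22), also without overlap. Of the receptor complex for FGF21, Fgfr1 rose by 0.49, which the median-ratio scale reduced to 0.17, and Klb did not pass (−0.07).

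Folding, redox and heme genes were higher in part. Of 20 genes of the unfolded protein response 15 rose and 0 fell, but 9 rose and 3 fell on the median-ratio scale. Hspa5, the chaperone BiP, had 132 to 155 against 204 to 245 RPKM (0.66 ± 0.06) and Xbp1, a factor of this response, 28.1 to 39.2 against 49.6 to 98.9 (1.14 ± 0.13), each without overlap. In the redox list 12 of 19 rose and 2 fell as deposited, beside 54.2% and 10.5% of all genes, 9 rose and 6 fell on the median-ratio scale, and 11 rose and 5 fell without libraries 30 to 32. Srxn1, sulfiredoxin, went from 37.8 to 108 up to 214 to 433 RPKM (2.30 ± 0.19), Nqo1, a quinone reductase, rose by 1.65, Prdx1 by 1.26, and Gclm, with ranges of 20.4 to 44.2 and 37.2 to 85.4 RPKM that overlap, by 0.96. Their regulator Nfe2l2, NRF2, rose by 0.91 ± 0.08. Among 18 heme and iron genes 13 rose and 2 fell (10 and 4 on the median-ratio scale, 13 and 1 without libraries 30 to 32). Hmox1, which degrades heme, had 82.7 to 285 against 290 to 899 RPKM (1.89 ± 0.22), Alas1, which starts heme synthesis outside red cells, rose by 1.50 and Ftl1, ferritin light chain, by 1.25. Alas2, its red cell counterpart, did not pass (0.55).

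The largest fall of any gene was that of Ptgds, the lipocalin-type prostaglandin D synthase. It had 28.9 to 104 RPKM (median 55.7) in wild-type and 1.02 to 4.21 (median 1.91) in Ucp1-KO libraries, with no overlap and a difference of −4.21 ± 0.31 (adjusted p = 2.7e-15). Hpgds, the hematopoietic form of the same enzyme, rose from 0.364 to 0.670 up to 1.09 to 7.58 RPKM (1.81 ± 0.21), and Ptges, which makes prostaglandin E2, rose by 1.64. After Ptgds and Ucp1 the largest falls were Cyp2b10, a cytochrome P450 (9.28 to 20.0 against 0.510 to 2.72 RPKM, −2.87 ± 0.32), and Aspg, an asparaginase (33.5 to 65.0 against 3.19 to 17.8, −2.42 ± 0.25). Cntfr, the receptor subunit for ciliary neurotrophic factor, and Myo5b, a vesicle motor, fell by 1.82 and 1.81. None of these 4 overlapped.

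Secreted factors of adipocytes and vessels changed unevenly. Of 19 adipokine and fat expansion genes 13 rose and 1 fell, 6 rose and 3 fell on the median-ratio scale, and 9 rose and 2 fell without libraries 30 to 32. Shares of all genes were 54.2% higher and 10.5% lower as deposited, and 29.6% and 27.3% on the median-ratio scale. Retn, resistin, went from 48.3 to 103 up to 117 to 351 RPKM (1.47 ± 0.32), Adipoq, adiponectin, rose by 0.50 as deposited but did not pass on the median-ratio scale (0.17), and Lep, leptin, did not pass (0.42 ± 0.36). Nampt, an NAD synthesis enzyme that is also secreted, fell by 0.49 with no overlap. Pgf, placental growth factor, and Angpt2, which loosens vessels, rose from medians of 1.33 and 1.14 to 6.69 and 3.19 RPKM (1.74 ± 0.19 and 0.89 ± 0.11), while Vegfa and Vegfb fell by 0.33 and 0.56. Of 12 endothelial genes 8 rose as deposited, and 4 rose and 3 fell on the median-ratio scale, to be read beside the same shares. Pecam1 was higher by 0.67 as deposited and Kdr was at 0.01. Kdr passed as lower on the median-ratio scale (−0.32) and with quantile normalization (−0.21).

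The genotype difference at 30 °C was then set against the genotype difference at 20 °C in the same fit. The difference between these differences passed the test for 6001 genes upwards (40.5%) and 1765 downwards (11.9%), and for 3768 and 3320 with median-ratio scaling. Some genes had opposite differences at the 2 temperatures. In those named here the wild-type and Ucp1-KO means changed in opposite directions between 20 °C and 30 °C. The temperature labels were taken as given, and whether groups were exchanged was not tested. Vim had means of 154 and 463 RPKM in wild-type and Ucp1-KO at 30 °C and 329 and 129 at 20 °C, an interaction of 2.95 ± 0.17. Lrp1, an endocytic receptor, was at 29.7 and 67.4 in the warm and at 35.7 and 20.4 in the cool. Ptgds did the reverse, with 59.0 and 2.20 RPKM at 30 °C and 1.85 and 65.7 at 20 °C (interaction −8.64 ± 0.43), and so did Cntfr, with 67.9 and 19.1 against 7.53 and 48.8 (−4.35 ± 0.22), and Sgk2, a kinase, with 22.2 and 6.38 against 2.19 and 20.5 (−4.52 ± 0.29). Ppargc1a was lower in Ucp1-KO at 30 °C and higher at 20 °C (13.9 and 66.0 RPKM, interaction −3.19 ± 0.34).

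Whole lists differed between the temperatures as well. Of the thermogenic genes 18 of 29 had a lower and 1 a higher difference at 30 °C. All but 2 of the 28 type I effectors had a larger difference at 30 °C, where their median was 2.33 against 0.87 at 20 °C, and the 18 class I genes all did (1.90 against 0.33). Isg15 rose by 1.92 at 20 °C (interaction 1.74 ± 0.42), Trem2 by 0.81 (2.80 ± 0.40) and Saa3 did not pass there (0.06, interaction 2.88 ± 0.32). In the integrated stress response 13 of 25 genes had a smaller and 3 a larger difference at 30 °C. Fgf21 reached 36.3 RPKM in Ucp1-KO at 20 °C against 4.73 at 30 °C (interaction −3.22 ± 0.32), and Gdf15 had an interaction of −1.83 ± 0.50, which did not pass with pseudocount 5 (−0.60). Its wild-type means were 0.140 RPKM at 20 °C and 6.71 at 30 °C, and its Ucp1-KO means 33.9 and 43.7. For Atf3 and Slc3a2 the interactions were −0.06 ± 0.37 and −0.11 ± 0.13 and did not pass, although that of Slc3a2 passed with median-ratio scaling (−0.36, adjusted p = 0.012).

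The genotype differences on the 2 diets at 30 °C were compared next. The control-diet difference minus the high-fat difference passed for 559 genes upwards (3.77%) and 411 downwards (2.77%), 0 of the 28 type I effectors among them. Without libraries 30, 31 and 32 it passed for 1581 and 752 genes, and with array weights, which give deviating libraries less weight, for 1743 and 997. Itih4, an acute phase protein, had means of 1.22 and 14.3 RPKM on control diet and 1.77 and 2.54 on high fat diet (difference of differences 2.27 ± 0.37, adjusted p = 0.00017). Pgf had 1.39 and 7.81 on control diet, 4.03 and 3.73 on high fat diet and 0.379 and 0.357 at 20 °C, so its rise was seen in the control diet group at 30 °C and in neither of the other iBAT settings. Angpt2 and Apln, the vessel factors angiopoietin 2 and apelin, had interactions of 1.08 ± 0.16 and 1.73 ± 0.30. Mlxipl, the glucose-sensing factor ChREBP, fell by less on control diet (0.38) than on high fat diet (1.17, interaction 0.79 ± 0.12). Tshr, the thyrotropin receptor, had 2.84 and 2.50 RPKM on control diet and 1.87 and 5.81 on high fat diet (−1.35 ± 0.18), Klb had 26.2 and 24.7 against 6.32 and 16.5 (−1.33 ± 0.25), and Ptgds had 3.47 and 1.03 on high fat diet (−2.84 ± 0.43).

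**Figure D4:**
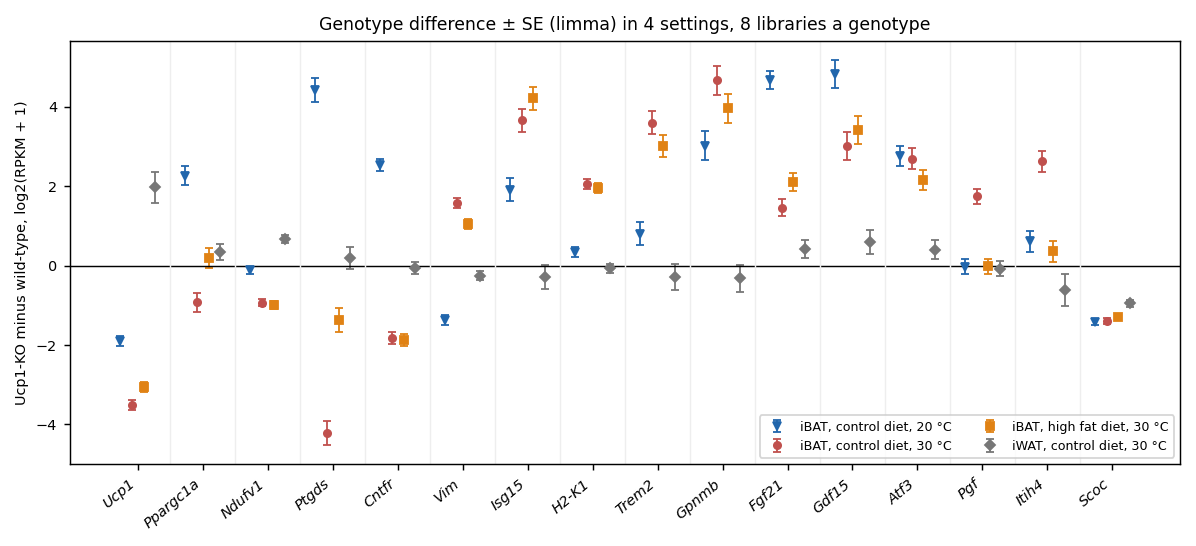
Ucp1-KO minus wild-type on log2(RPKM + 1) with its standard error (limma) for 16 genes in iBAT at 20 °C on control diet, at 30 °C on control diet, at 30 °C on high fat diet and in iWAT at 30 °C on control diet, 8 libraries a genotype in each. Ppargc1a, Ptgds, Cntfr and Vim have opposite signs at 20 °C and 30 °C, Pgf and Itih4 rise mainly at 30 °C on control diet, and Scoc is lower in all 4 settings.

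Inguinal fat of the same diet and temperature gave other differences. In a fit of all 96 libraries the iBAT minus the iWAT difference passed for 8593 of 16314 genes upwards (52.7%) and 1702 downwards (10.4%), and for 4417 and 4241 with median-ratio scaling. Within iWAT 1237 genes (7.58%) were higher and 3273 (20.1%) lower in Ucp1-KO. Of the 28 type I effectors 0 rose and 3 fell in iWAT, and of the 9 pan-macrophage markers 0 rose and 4 fell. H2-K1 had means of 724 and 696 RPKM there, and B2m 2006 and 1885, both near their levels in Ucp1-KO iBAT. The nuclear respiratory chain went the opposite way in iWAT, with 53 of 55 genes higher in Ucp1-KO. The iBAT and iWAT libraries of 1 animal cannot be matched from the labels.

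Genes near Ucp1 on its chromosome were read because a targeted allele carries flanking sequence of the strain in which it was made. Of 110 genes tested within 10 Mb, 59 were higher and 15 lower as deposited, beside 54.2% and 10.5% of all genes. On the median-ratio scale 35 were higher and 39 lower, beside 29.6% and 27.3% of all genes. Of these 110 genes, 5 passed with 1 sign at 20 °C, at 30 °C, on high fat diet and in iWAT. This is a larger share than the 162 of all 14811 genes (1.09%). Scoc, a protein of autophagy and transport, had 7.57 to 8.80 RPKM in wild-type and 1.77 to 3.67 in Ucp1-KO libraries (−1.39 ± 0.08, adjusted p = 6.3e-19), and its difference was −1.42 at 20 °C, −1.29 on high fat diet and −0.95 in iWAT. Rnf150, a ubiquitin ligase, was lower in all 4 settings (−0.85 at 30 °C) and Usp38, a deubiquitinase, higher (0.93). Elmod2, the nearest gene tested, had 5.43 to 9.52 against 9.47 to 11.3 RPKM and changed sign between settings (0.40 at 30 °C and −0.57 at 20 °C). The rise at 30 °C did not pass with median-ratio scaling (0.10), quantile normalization (0.01) or rescaling without the mitochondrial genome (0.22). The source of the sequence around the allele was not tested.

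Relations between 3 leading genes and Gpnmb were computed within each genotype across its 8 libraries. Isg15 against Gpnmb gave r = −0.06 (rho = −0.07) in Ucp1-KO, with exact permutation p = 0.896 and 0.882, and r = −0.56 without the 2 libraries farthest from the median. In Ucp1-KO mt-Nd1 against Gpnmb gave r = −0.62 (exact permutation p = 0.102, adjusted 0.415 over 6 relations) and rho = −0.36 (exact p = 0.389). Without the 2 farthest libraries r was 0.03, so the Ucp1-KO relation rests on those 2. In wild-type the same pair gave r = −0.57 (exact permutation p = 0.138, adjusted 0.415) and rho = −0.60, and r = −0.50 without the 2 farthest libraries. No relation of the 6 passed, and with 8 libraries only strong relations could have.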

How the data were processed

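The authors deposited RPKM values for 168326 transcript rows and 96 libraries, made from a stranded kit on total RNA, per the labels' protocols. CASAVA and bcl2fastq are named in the submitters' processing notes, and what aligner, counter or build was used is not given in the sources used here. Rows without a gene identifier (13.8%, holding 9.85% of the RPKM) were left out. Each of 29076 symbols was represented by its row with the highest mean over all libraries, and the sum of its rows was an alternative. Depth was recovered from the spacing of low values over transcript lengths of GENCODE release M21, which put 95.1% to 95.6% of low values within 0.05 of a whole read in the 16 libraries.

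Differences were tested with limma 3.58.1 (R 4.3.3, with data.table in version 1.17.8) on log2(RPKM + 1), which understates changes of low genes. All 48 iBAT libraries entered 1 fit, 96 for the contrast with iWAT, with no covariate and a trended variance, for genes of at least 0.5 RPKM in 8 libraries. Adjusted p-values are Benjamini-Hochberg values over all genes tested. The exact permutation tests, sums, motifs and plots were made with Python 3.11.15, numpy 2.4.6, scipy 1.17.1, pandas 2.3.3 and matplotlib 3.10.9. The limma step was tested on simulated data. No batch is given in the labels, and no 2 of the 16 libraries hold identical values.

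The members and gene lists were chosen with earlier results of these data known. The genes named are Ucp1, the 10 largest rises and falls with a mean of at least 5 RPKM, the first 3 members and the 4 of smallest p of each list, whole lists of up to 10 genes, the leading genes of each interaction, genes near Ucp1, members that went against their list, and the genes of the promoter stretches. Some genes that this rule names are not reported here. The alternatives were 3 other scalings, other pseudocounts and low-value filters, sums of transcripts, array weights, a fit of the 16 libraries alone and leaving out each library. Leaving out libraries 30, 31 and 32 together was chosen after seeing the data.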

Additional observations from a re-analysis of the deposited data

Results flagged for a closer look

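Of 378 sets of 8 libraries examined (189 genes or list sums in each genotype), 17 held a library far from the other 7, 4.5%, and chance alone flags about 1 in 20 such sets. Wild-type library 18 was highest for 3 interferon-induced genes: Ifit3 (6.91 RPKM, the others at most 3.18), Mx1 (2.09, at most 0.592) and Zbp1 (4.28, at most 1.81). Ucp1-KO library 29 was highest for Irf7 (176 RPKM, the others at most 85.9), Zbp1 (49.6, at most 20.5) and Irgm1 (77.9, at most 42.2). Ucp1-KO library 30 was highest for Prdm16 (6.57), Kcnk3 (210.5, the others at most 127), Vegfa (163) and Sgk2 (14.6). Library 31 was lowest for Apoe (1153 RPKM, the others at least 1723) and Atp2a2 (73.3). Wild-type library 19 was highest for Cfb (10.3), Col1a1 (68.3) and mt-Nd4l (3.30), wild-type library 22 for Alpl (15.0) and Ucp1-KO library 28 for mt-Atp6 (3.08).

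The genotype difference itself differed between settings by the interaction test. Against 20 °C this held for 6001 genes upwards and 1765 downwards, with Ptgds at −8.64, Sgk2 at −4.52, Cntfr at −4.35, Fgf21 at −3.22, Ppargc1a at −3.19, Gdf15 at −1.83 and Ucp1 at −1.61, and with Vim at 2.95, Saa3 at 2.88, Trem2 at 2.80, Lrp1 at 1.93 and Isg15 at 1.74. Against high fat diet it held for 559 and 411 genes, with Itih4 at 2.27, Pgf at 1.76, Apln at 1.73, Angpt2 at 1.08, Mlxipl at 0.79, Klb at −1.33, Tshr at −1.35 and Ptgds at −2.84. Against iWAT it held for 8593 and 1702 genes, with H2-K1 at 2.13 and B2m at 1.99.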

How the results depend on the processing

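The scale of the libraries moved most the counts at 30 °C, against 20 °C and against iWAT, and array weights or leaving out 3 libraries moved those against high fat diet, and the cause was not tested. With median-ratio scaling the counts of genes higher and lower were 4377 and 4037 for the genotype difference at 30 °C, 3768 and 3320 against 20 °C, and 4417 and 4241 against iWAT. With quantile normalization they were 3556 and 4915, 3132 and 3468, and 3554 and 4722. Rescaled without the mitochondrial genome and Ucp1, 2825 genes were lower at 30 °C. Against high fat diet, array weights gave 1743 and 997 genes, and leaving out libraries 30, 31 and 32 gave 1581 and 752. Leaving out 1 library at a time left 7705 to 8033 genes higher and 1457 to 1661 lower at 30 °C. Some named genes changed sign, most of them from values that had not passed. With median-ratio scaling Zic1 was at −0.085, Lhx8 −0.033, Pparg −0.055, Plin1 −0.076, Slc6a8 −0.14, Fasn −0.16, Lpl −0.26, Ifnar2 −0.019, Atf5 −0.11, Kdr −0.32 and Arntl −0.24. Of these, Kdr passed as lower. With quantile normalization Zic1 was at −0.25, Lhx8 −0.22, Slc6a8 −0.17, Ifnar1 −0.012, Kdr −0.21, Arntl −0.33, mt-Nd5 0.14 and mt-Nd4 0.45. There the fall of mt-Nd4 became a rise that passed, and Zic1, Kdr and Arntl passed as lower. Without the mitochondrial genome and Ucp1, Slc6a8 was at −0.012, Fasn −0.023, Lpl −0.12, Kdr −0.19 and Arntl −0.12. Array weights put Fasn at −0.097 and Lpl at −0.017, and the sum of transcripts put Kdr at −0.14. Leaving out 1 library at a time gave −0.027 to 0.055 for Kdr, −0.0098 to 0.13 for Arntl and −0.067 to 0.035 for Prdm16. Without libraries 30, 31 and 32 Alpl was at 0.0032, Fasn −0.22, Lpl −0.049 and Atf5 −0.010. The Atf3 interaction with temperature was 0.34 with pseudocount 5, 0.21 with array weights and 0.026 without those libraries. That of Gdf15 did not pass with pseudocount 5 (−0.60), nor that of Ptgds with diet at pseudocount 0.1 (−2.08). No paired analysis was possible because the labels number every library once. Ligand genes near 1 read cannot be compared at this depth.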

Other observations

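Cell growth genes were higher in part. Of 18 cytosolic ribosome genes 16 rose (12 on the median-ratio scale), with Rps3, a subunit of the small ribosomal particle, at 148 to 210 RPKM in wild-type and 236 to 299 in Ucp1-KO libraries (0.61 ± 0.09), and Rpl10 of the large particle higher by 0.90. Of 19 proteasome genes 18 rose, though 10 did on the median-ratio scale. Psma1 and Psma5, subunits of the core ring, rose by 1.09 and 1.29 without overlap. Among 16 proliferation genes 15 rose (14 on the median-ratio scale), with Mki67, a marker of cycling cells, at 0.385 to 1.52 against 1.20 to 3.77 RPKM, which did not pass with quantile normalization (0.30), and Mcm5, which opens DNA for replication, higher by 1.06.

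Immediate early genes rose in 11 of 12 cases on either scale: Junb and Egr2, early response transcription factors, by 1.55 and 1.42 with no overlap, and Fos by 1.44 with a wild-type range of 1.10 to 26.1 RPKM. Clock genes moved unevenly, 8 of 18 rising and 3 falling as deposited, beside 54.2% and 10.5% of all genes, and 1 rising and 4 falling on the median-ratio scale. Hlf, a clock output factor, went from 5.21 to 10.3 down to 2.25 to 3.71 RPKM (−1.14 ± 0.12), and Arntl, the core factor BMAL1, did not pass (0.05). The hour of collection is not given in the sources used here. Of 12 genes of Schwann cells and nerve 11 rose (10 rose and 1 fell on the median-ratio scale), among them Cnp, a protein of glial membranes, by 1.21 without overlap, and Sox10, a factor of the glial lineage, by 0.95. Without libraries 30, 31 and 32 the counts of higher genes were 15 for ribosome, 15 for proteasome, 16 for proliferation, 11 for immediate early, 4 for clock and 10 for nerve genes.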
